A study of Drosophila melanogaster with 9 samples.

Results

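The X-linked genes ct and Cph, with 50 kb on each side of each gene body, were described in 6 H3K27me3 peak lists from Drosophila melanogaster larvae of the third instar. They are 2 of 13922 protein-coding genes on the main chromosome arms and 2 of 2197 on X. ct (Dmel_CG11387) spans X, 7608428 to 7678859 (dm6), a body of 70.4 kb. Cph (Dmel_CG9650) spans X, 7137723 to 7241932, a body of 104.2 kb, and ends 366.5 kb before ct begins. Both were chosen by the share of their bodies under peaks, which was higher in wild-type females than in wild-type males, so that contrast is given below as a description with no test.

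The 3 groups of 2 libraries were wild-type males, males with the genotype roX1[ex6]roX2[9-4], in which both roX genes are knocked out, and wild-type females. Chromatin came from ground larvae, with no tissue named in the labels, which also do not say whether replicates were separate collections of animals. The spread between replicates may therefore be technical. The 3 input samples were not analysed here. Each library has its own peak list without read counts, so sequencing depth is unknown, and a stretch without a peak was not detected as marked at that depth. In larvae of mixed cell types, fewer cells carrying the mark and less mark per cell cannot be told apart.

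H3K27me3 is the trimethylation of lysine 27 on histone H3, made by the Polycomb complex PRC2. It typically forms broad domains over silent genes for developmental regulators. The roX RNAs are noncoding parts of the MSL complex, which binds the male X chromosome and raises its transcription. ct encodes Cut, a homeodomain protein with Cut repeats that acts at the wing margin, in external sensory organs, in Malpighian tubules and in the dendrites of sensory neurons. Cph encodes Chronophage, a zinc finger protein of the BCL11 family that takes part in the temporal patterning of neural stem cells.

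The lists held 4784 to 5406 peaks in wild-type males, 6189 to 6327 in knockout males and 8896 to 10619 in females, of which 367 to 443, 350 to 375 and 1233 to 1585 lay on X. Peaks covered 6.23% to 6.64% of X in wild-type males, 1.98% to 2.48% in knockout males and 9.73% to 11.4% in females. On the main chromosome arms together they covered 15.1 to 15.9 Mb, 11.4 to 13.0 Mb and 15.5 to 17.8 Mb in the same order. Y-linked sequence was covered over 235.6 to 301.4 kb, 166.1 to 166.6 kb and 25.2 to 30.4 kb in these groups, which sets the libraries labelled male apart from those labelled female. With 2 libraries against 2, an exact permutation test of a single value cannot give a two-sided p below 0.333. Values are therefore given per library, with the gap between groups beside the spread within them, and an adjusted p is given from limma fitted over all genes where a test was possible.

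In wild-type males the mark lay over the lower-coordinate part of ct and over the upper-coordinate part of Cph. Positions below are distances from the lower-coordinate end of each gene, since the gene table used here carries no strand. Peaks covered 48.0% and 47.0% of the ct body in wild-type male replicates 1 and 2, or 33.8 and 33.1 kb. In Cph they covered 46.4% and 45.3%, or 48.4 and 47.3 kb. The replicates of wild-type males differed by 0.994 percentage points in ct and by 1.09 points in Cph.

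**Figure D1:**
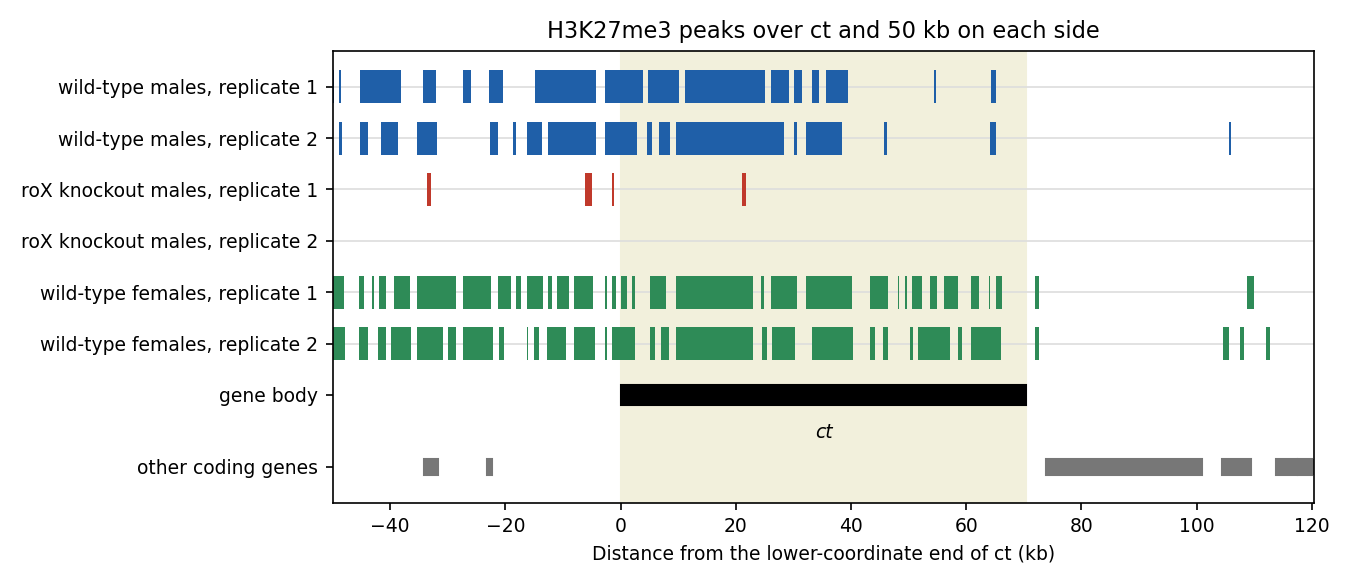
Peaks of each library over ct and 50 kb on each side, with distance from the lower-coordinate end of ct in kb on the horizontal axis and 1 row per library (bars are peaks, the shaded area and black bar are the ct body, grey bars are other protein-coding genes). Peaks of wild-type males lie mostly along the lower flank and the lower part of the body, those of females also along the upper part, and knockout males have 4 peaks in replicate 1 and 0 in replicate 2.

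The marked region of ct in wild-type males began outside the gene. Of the 50 kb below ct, 54.9% was covered in replicate 1 and 48.1% in replicate 2, against 0% and 0.870% of the 50 kb above it. Each body was split into 10 segments of equal length, numbered from its lower-coordinate end. In ct, where a segment is 7.04 kb, segments 1 to 5 were covered over 81.7% and 80.1%, and segments 6 to 10 over 14.3% and 14.0%. The third segment was covered in full in both libraries, whereas the ninth held no peak in either. The widest peaks of the window spanned the fully covered segment, at 11.2 to 25.0 kb in replicate 1 (13.8 kb wide) and at 9.57 to 28.4 kb in replicate 2 (18.9 kb wide). The last peak of at least 3 kb ended at 39.5 kb in replicate 1 and at 38.4 kb in replicate 2.

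Cph showed the mirror arrangement by coordinate. Segments 1 to 5 of its body (10.4 kb each) were covered over 16.0% and 12.0% in wild-type male replicates 1 and 2, and segments 6 to 10 over 76.8% and 78.7%. Both flanks of 50 kb were at 0% in both libraries. The seventh segment was the most covered, at 90.3% and 100%. The last peak ended at 102.1 kb in replicate 1 and 102.2 kb in replicate 2, that is 2.09 and 2.03 kb before the annotated end of the gene. The widest peak ran from 75.9 to 85.1 kb in replicate 1 (9.20 kb) and from 59.6 to 74.8 kb in replicate 2 (15.2 kb).

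**Figure D2:**
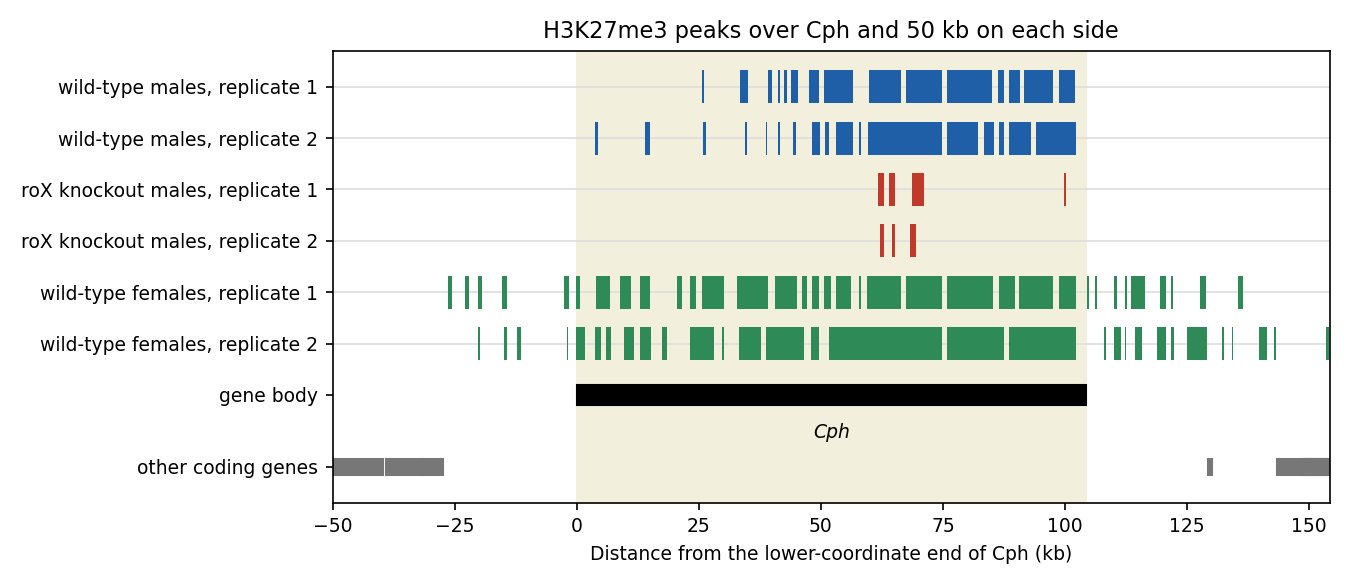
Peaks of each library over Cph and 50 kb on each side, with distance from the lower-coordinate end of Cph in kb on the horizontal axis and 1 row per library (symbols as for ct). The last peak within the gene body ends between 102.1 and 102.3 kb in all 4 wild-type libraries, females have further peaks across the lower part and both flanks, and knockout males keep 4 and 3 short peaks.

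Males lacking roX1 and roX2 had almost no peaks over either gene. The ct body was covered over 0.897% in knockout replicate 1, by 1 peak of 0.632 kb, and over 0% in replicate 2. Its lower flank was at 4.52% and 0%, and its upper flank at 0% in both. Over the whole window of ct with both flanks, knockout replicate 1 held 4 peaks and 2.89 kb of marked sequence, and replicate 2 held none. Wild-type males held 16 and 17 peaks there, and 61.3 and 57.6 kb. No knockout value for the ct body reached a wild-type one, and the gap of 46.1 percentage points between the nearest libraries stood against at most 0.994 points between replicates. The body of ct was lower in knockout than in wild-type males by 47.1 points on average, with a limma estimate of -47.1 ± 1.08 percentage points (SE, adjusted p = 0.000875 over 3164 genes). Wild-type male libraries also entered the contrast by which both genes were picked, so this test is not fully independent of the choice.

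The Cph body was covered over 5.27% in knockout replicate 1 and 2.64% in replicate 2, or 5.49 and 2.75 kb. Its upper part (segments 6 to 10) went from 76.8% and 78.7% in wild-type males to 10.5% and 5.29%, and its lower part was at 0% in both knockout libraries. The gap between the nearest libraries for the whole body was 40.1 points, against at most 2.63 points between replicates. The limma estimate for Cph was -41.9 ± 2.87 percentage points (SE, adjusted p = 0.0144). For Cph this call did not hold when 1 of the 4 male libraries was left out, with limma adjusted p from 0.0563 without knockout replicate 1 and 0.0677 without knockout replicate 2 to 0.131 and 0.133 without wild-type male replicates 2 and 1. It was also lost when a peak needed a −log10 q of 3 or more (-29.2 points, limma adjusted p = 0.105) and with lists of equal total length (-29.1 points, limma adjusted p = 0.167).

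Among all 3164 genes with a peak base in at least 2 libraries, limma called 3.19% lower in knockout males, and among the 374 on X it called 8.56%. Coverage was lower in both knockout libraries than in both wild-type male libraries for 22.2% of those X-linked genes. Both ct and Cph fall within these shares. A gene is called marked here when at least 50% of its body lies under peaks. By that rule neither gene could be counted as losing the mark in the knockout, because both lay just under the limit in wild-type males. Of the 51 X-linked genes above it in both wild-type male libraries, 54.9% were below it in both knockout libraries. Coverage of the whole X moved in the same direction, from 6.44% ± 0.293 (SD, n = 2) to 2.23% ± 0.355, and its part in these differences was not tested.

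**Figure D3:**
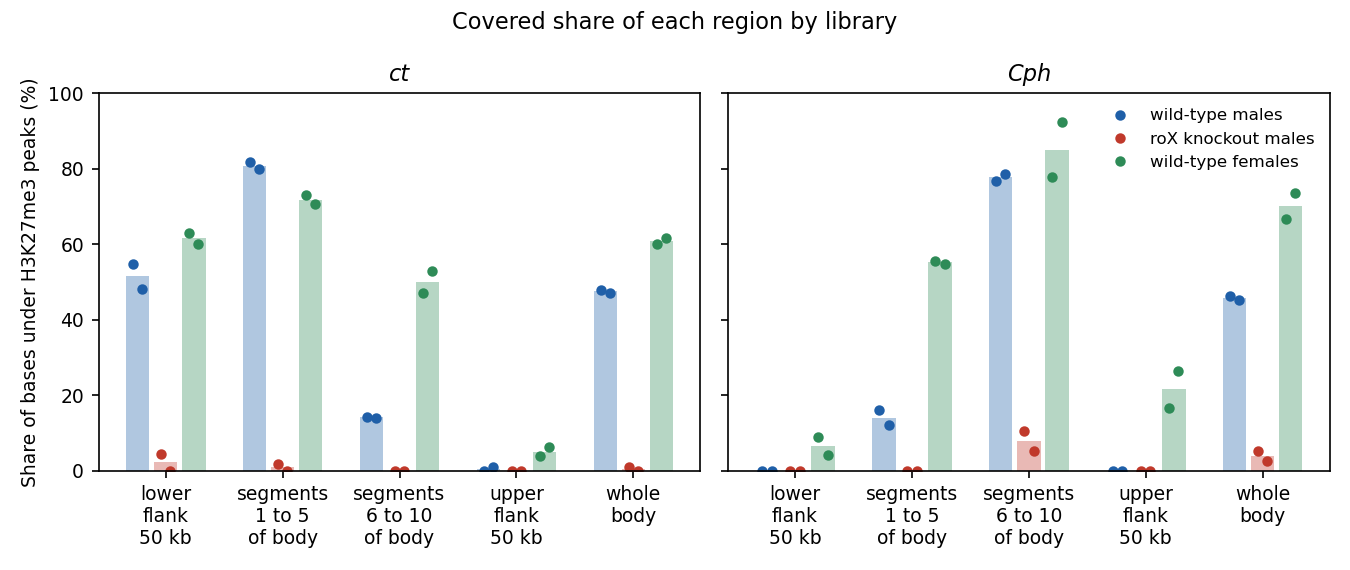
Share of bases under peaks (vertical axis, %) in the flanks, in segments 1 to 5 and 6 to 10 and the whole body of ct (left) and Cph (right). Bars are group means and points are the 2 libraries of each group; knockout points lie at or below 10.5% in every region shown, and female points exceed wild-type male points in segments 6 to 10 of ct and in segments 1 to 5 of Cph.

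What remained in the knockout lay on bases that wild-type larvae also had under peaks. All 2.89 kb in the ct window, and all 5.49 and 2.75 kb in the Cph window of knockout replicates 1 and 2, fell on bases covered in both wild-type male and both female libraries. Such bases made up 19.7% of the ct window and 18.8% of the Cph window. Over the whole of X, 78.0% and 72.9% of the knockout coverage lay on bases covered in both wild-type male libraries. For bases covered in both female libraries these shares were 67.4% and 63.6%. The share of X on bases covered in both of these groups at once was not computed. No base in either window was covered in a knockout library and in no wild-type one.

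The remaining knockout peaks in Cph sat at the same 3 places in both libraries. They met at 62.2 to 63.0 kb (X, 7199897 to 7200676), at 64.5 to 65.2 kb (X, 7202196 to 7202912) and at 68.6 to 69.5 kb (X, 7206309 to 7207200). Together these stretches summed to 2.39 kb, the only bases of the window covered in all 6 libraries. They lie in the seventh segment, the most covered one in wild-type males, or across its lower edge. All 3 fall inside the peak of highest fold in wild-type male replicate 2, and the last of them inside that of replicate 1. Another peak, at 99.7 to 100.2 kb, was present in knockout replicate 1 alone.

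In ct no base was shared by the knockout libraries. The 4 peaks of replicate 1 lay at -33.7 to -33.0 kb, -6.13 to -4.96 kb and -1.43 to -1.08 kb, all below the gene, and at 21.1 to 21.7 kb within it. The highest of them by the authors' fold was that at -6.13 to -4.96 kb (X, 7602295 to 7603472), at a fold of 2.04. It lies inside the peak of highest fold in wild-type male replicate 2, which ran from -12.6 to -4.25 kb at a fold of 2.26.

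In wild-type females peaks lay in every one of the 10 segments of both genes. The ct body was covered over 60.2% and 61.8% in female replicates 1 and 2, or 42.4 and 43.5 kb, and the Cph body over 66.7% and 73.6%, or 69.5 and 76.7 kb. These values chose the genes. They crossed the limit of 50% from just below, since wild-type males lay between 45.3% and 48.0%. Of X-linked genes marked in neither wild-type male library, 1.26% were marked in both female libraries, and nothing is read from that share here. The whole-body values hide an uneven pattern along each gene, given next as a description.

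In ct the higher female coverage lay in the upper part. Segments 6 to 10 were covered over 47.2% and 52.9% in females against 14.3% and 14.0% in wild-type males. In the other direction, segments 1 to 5 were covered over 73.1% and 70.7% in females against 81.7% and 80.1% in wild-type males, without overlap. The ninth segment, without a peak in males, was at 52.7% and 57.4%. At 21.1 to 28.2 kb, in the fourth segment of ct, female coverage was 62.1% and 65.3% against 84.9% and 100% in wild-type males. The lower values there came with gaps between female peaks, the longest stretch covered in both male and neither female library being 1.42 kb (X, 7631400 to 7632823). The lower part was higher in females on average, by 4.85 points, when lists were shortened to equal total length. The groups then overlapped, at 73.1% and 66.7% in females and 58.9% and 71.2% in wild-type males. Outside the gene, 63.1% and 60.1% of the lower flank was covered in females, and its gap of 5.26 points to the wild-type males was smaller than the 6.80 points between their replicates. The upper flank was at 3.81% and 6.29% in females.

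In Cph the higher female coverage lay in the lower part and in the flanks. Segments 1 to 5 were at 55.5% and 54.9% in females against 16.0% and 12.0% in wild-type males. Segments 6 to 10 overlapped between the sexes, at 77.9% and 92.4% against 76.8% and 78.7%. No stretch of the Cph window was covered in both male libraries and in neither female library, whereas 19.8 kb showed the opposite pattern. Beyond the gene, females had 8.79% and 4.11% of the lower flank and 16.7% and 26.4% of the upper flank under peaks, where wild-type and knockout males had none. The gap of 4.11 points in the lower flank was smaller than the 4.68 points between female replicates, and that of 16.7 points in the upper flank was larger than the 9.70 points between them.

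**Figure D4:**
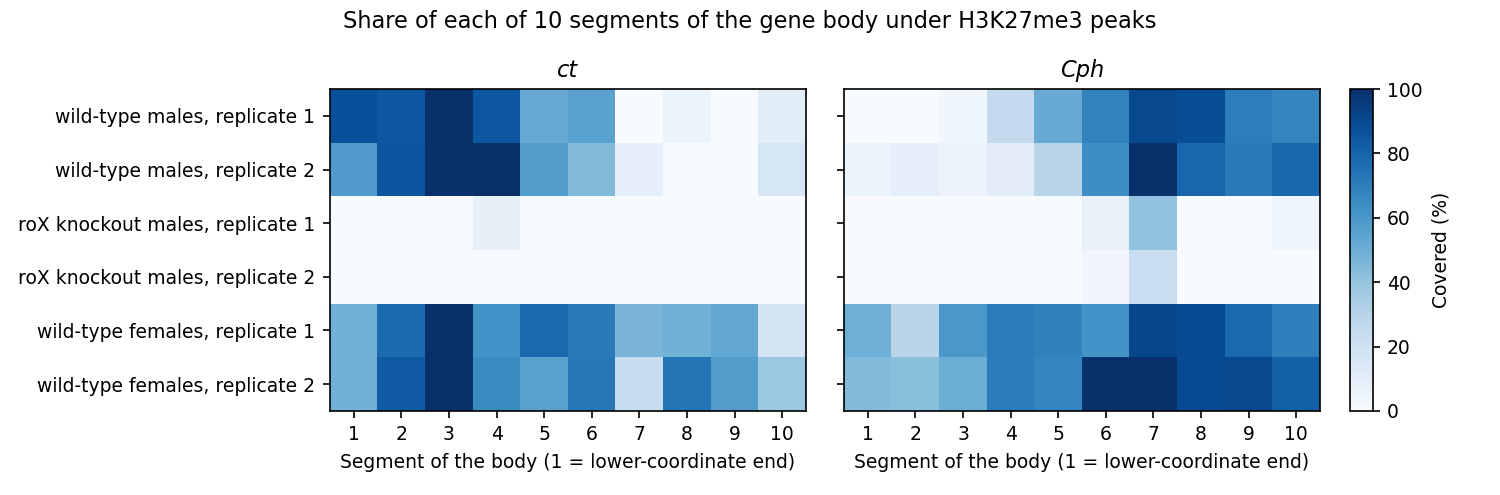
Share of each segment of the gene body under peaks (colour, %) in each library (rows) for ct and Cph, with segment 1 at the lower-coordinate end. In all 4 wild-type libraries the third segment of ct is at 100% and the seventh of Cph at 90.3% to 100%, and the seventh of Cph is also the most covered one in both knockout libraries (40.3% and 23.0%).

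Female peaks that met no peak of a wild-type male library had lower median folds than the others. In the ct window, 7 of 33 peaks in female replicate 1 and 8 of 30 in replicate 2 were of this kind. In the Cph window these were 19 of 34 and 21 of 30. Within female replicate 1 the median fold of such peaks was 1.78 in ct and 1.77 in Cph, against 2.01 and 1.97 for those that met a male peak. Within female replicate 2 it was 1.74 and 1.80, against 2.01 and 1.92. The same order held over all X-linked peaks of the female lists, at 1.75 against 1.89 in both. The higher female coverage of ct did not hold for peaks whose −log10 q reached 3, where 26.7% and 20.1% of its body was covered in females and 30.0% and 34.7% in wild-type males. At that limit the Cph body was at 26.0% and 46.7% in females and 24.4% and 33.9% in wild-type males, so that the groups overlapped. The higher female coverage of segments 6 to 10 of ct was gone at that limit, female minus male being -0.547 points. It was also gone in segments 1 to 5 of Cph, at -1.70 points. Segments 6 to 10 of Cph were at 52.0% and 92.4% in females and 46.2% and 66.1% in wild-type males, so that the groups overlapped. Segments 1 to 5 of ct stayed lower in females there, at 53.4% and 40.2% against 58.9% and 69.4% in wild-type males. Both genes were at 0% in both knockout libraries at that limit.

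Females had more coverage on X as a whole, at 10.5% ± 1.15 (SD, n = 2) against 6.44% ± 0.293 in wild-type males. Of the 374 X-linked genes with a peak base in at least 2 libraries, 76.5% were covered more in both female than in both wild-type male libraries, as ct and Cph were. The part of that wider difference in the values of the 2 genes was not tested. The sexes also differ in X chromosome number, and the part of this in the peaks called on X was not tested. Against knockout males, females were higher in 88% of these genes, and the female bodies of ct and Cph lay at least 59.3 and 61.5 points above the nearest knockout library.

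Some edges of peaks fell at nearly the same bases in separate libraries. In Cph a peak ended at 74.7 or 74.8 kb and the next began at 75.8 or 75.9 kb in all 4 wild-type libraries. That left a gap of 1.05 kb without a peak in any of the 6 libraries (X, 7212520 to 7213570). The last peak within the Cph body ended between 102.1 and 102.3 kb in these 4 libraries, and in females further peaks followed in the flank from 104.4 and 108.0 kb on. In ct a gap of 1.47 kb just below the gene, at -4.25 to -2.78 kb (X, 7604178 to 7605651), also had no peak in any library. The widest ct peak began at 9.56 kb in both female lists and at 9.57 kb in wild-type male replicate 2, but at 11.2 kb in wild-type male replicate 1. It ended at 23.0 and 22.9 kb in the female lists and farther on, at 25.0 and 28.4 kb, in the male ones. Whether reads can be placed in these gaps was not tested.

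Overlap in bases between libraries (Jaccard index) in the ct window was 0.676 between wild-type male replicates and 0.677 between female replicates, and 0.465 to 0.509 for pairs of a wild-type male and a female library. In the Cph window it was 0.728, 0.630 and 0.500 to 0.512. Knockout replicate 1 had an overlap of 0.0472 and 0.0502 with the wild-type male libraries at ct and of 0.114 and 0.116 at Cph. For knockout replicate 2 these were 0 at ct and 0.0569 and 0.0583 at Cph. The knockout replicates shared no base at ct and had an overlap of 0.408 at Cph. Over X as a whole the knockout libraries overlapped by 0.222 to 0.297 with wild-type males.

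The highest peaks of ct and Cph were ranked among the X-linked peaks of their own lists by fold enrichment, as the authors give it. The highest of several peaks was set against single peaks, so a high rank follows in part from that choice. Nothing is read from these ranks. The highest fold in the ct window was 2.10 and 2.26 in wild-type males and 2.66 and 2.31 in females, above 88.3%, 90.2%, 99.0% and 97.0% of the X-linked peaks of the same lists. In the Cph window it was 2.27 in both wild-type male lists, above 92.8% and 90.7% of X-linked peaks, and 2.25 and 2.19 in females, above 96.0% and 94.8%. The highest knockout peak at ct, in replicate 1 at a fold of 2.04, exceeded 87.2% of the X-linked peaks of its list. The highest knockout peaks in Cph, at 1.78 and 1.94, exceeded 56.3% and 67.7% of the X-linked peaks of their lists. A −log10 q of 3 was reached by 6 of 16 and 5 of 17 wild-type male peaks in the ct window, by 11 of 33 and 7 of 30 female peaks, and by 1 of 4 knockout peaks.

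Of the 7 other protein-coding genes in the ct window, 2 were marked in a library, and both lie in the lower flank. Wild-type male peaks covered 81.9% and 94.2% of CG11369 (X, 7574290 to 7576767), knockout peaks 29.8% and 0%, and female peaks 100% in both libraries. CG12689 (X, 7585303 to 7586131) was at 73.8% and 55.6%, at 0% in both knockout libraries, and at 73.7% and 100%. Both thus lost the mark in the knockout by the 50% rule, as did 54.9% of eligible X-linked genes. Neither passed limma, with -73.2 ± 12.0 points (SE, adjusted p = 0.0992) for CG11369 and -64.7 ± 11.9 (adjusted p = 0.123) for CG12689. In the upper flank, CHES-1-like (a forkhead gene), Hira (a histone H3.3 chaperone), NELF-B (a subunit of the negative elongation factor) and CG12155 had no peak in any library. CG15478 had no knockout peak, and was covered over 0% and 8.45% in wild-type males and 15.7% and 35.7% in females.

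None of the 9 other protein-coding genes that meet the Cph window was marked in any library, and 7 had no peak base. Those were Sxl, the switch gene of sex determination, which reaches into the lower flank, CG4615, CG4617, CG8300, the Frizzled receptor gene fz4, CG1958 and CG2059. CG1677 was covered over 2.31% and 5.90% in females and 0% in males, and unc-119 over 2.35% in female replicate 2 alone. The marked upper part of Cph is also annotated as the noncoding gene lncRNA:CR44357 (X, 7166451 to 7405797), which overlaps Cph over 75.5 kb, so its peaks cannot be assigned to 1 of these genes. lncRNA:CR32730, inside the lower part of Cph, was at 51.0% and 48.2% in females and at 0% in all 4 male libraries.

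Of the 69 X-linked protein-coding genes of at least 50 kb, 5 had a group mean of at least 20% covered, and ct and Cph were 2 of them. The 3 others were bi, Muc14A and Bx. bi, the T-box gene optomotor-blind, had 96.3% and 96.4% of its body covered in wild-type males, 34.7% and 30.1% in the knockout and 92.3% and 86.3% in females. Its fall in the knockout was -63.9 ± 2.93 percentage points (SE, limma adjusted p = 0.00555), and it was lower in females than in wild-type males. Muc14A, a mucin gene, was at 40.6% ± 0.647 (SD, n = 2), 35.6% ± 5.67 and 33.2% ± 2.52 in these groups, with limma giving -5.01 ± 3.36 points (SE, adjusted p = 0.935) for the knockout. Bx, a LIM-only gene of wing development, was covered over 5.11% and 1.04% in wild-type males and over 41.0% and 43.4% in females, with no peak in the knockout.

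**Figure D5:**
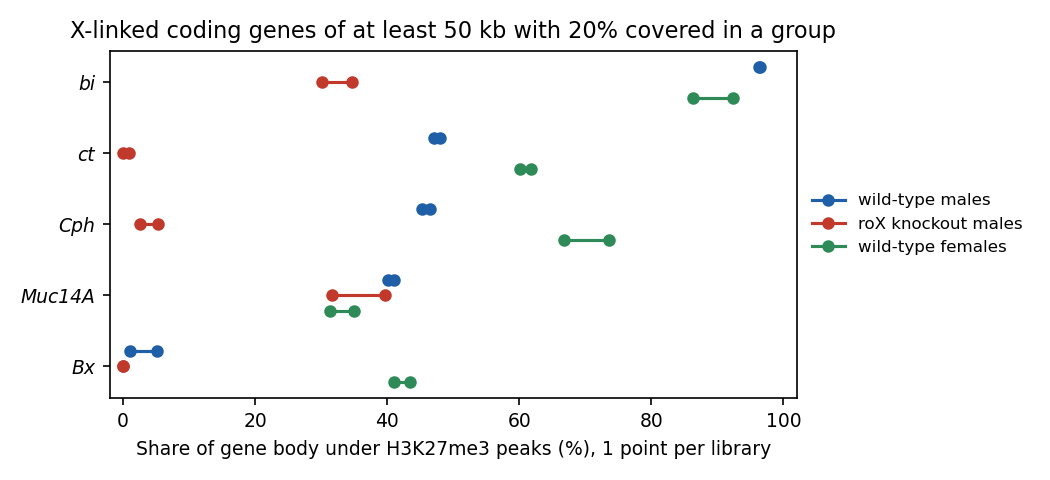
Share of the gene body under peaks (horizontal axis, %) for the 5 X-linked protein-coding genes of at least 50 kb with a group mean of at least 20%, with 1 point per library and a line joining replicates. For ct and Cph the knockout points lie at 0% to 5.27%, the wild-type male points at 45.3% to 48.0% and the female points at 60.2% to 73.6%.

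By body coverage over the 6 libraries, each of ct and Cph was the gene most like the other among the 1011 other protein-coding genes of at least 20 kb, with a Euclidean distance of 14.7 percentage points. Next for both came cv-2, a BMP-binding protein gene on 2R, at 29.6 points from ct and 25.1 from Cph. Wild-type male libraries had 43.1% and 54.2% of it under peaks, knockout libraries 27.2% and 0.826%, and female libraries 69.4% and 66.7%. The third for both was ths, an FGF ligand gene on 2R, at 32.5 and 41.8 points. Then came Ets65A (3L) and 5-HT7 (3R) for ct, at 34.3 and 42.8 points, and lobo (3R) and Ets65A for Cph, at 42.7 and 42.8 points. These distances describe 6 libraries and were not tested. Both genes were picked by body coverage in the wild-type libraries, which enter the distance. Their nearness to each other therefore follows in part from the choice.

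The genes of 4 lists of related genes were set beside ct and Cph. Of 3 homeobox genes of the Cut superclass, dve was covered over 100% of its body in wild-type males and females and over 98.3% and 99.9% in knockout males. onecut, on chromosome 4, was at 9.05% and 16.7% in wild-type males, 25.6% and 2.57% in the knockout and 2.59% and 12.1% in females. Among the 3, ct alone passed limma. Of 20 genes that act with ct in Notch signalling, at the wing margin or in sensory neurons, 19 were found in the gene table and 14 had a peak base in any library.

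Of these, 11 had the mark in wild-type male replicate 1 and 11 in replicate 2, while either knockout list marked 8 and the female lists 9 and 11. Of the 11 eligible genes 3 lost the mark in the knockout (Ser, pros and Kr), against 26.3% of all genes that carried it in both replicates of wild-type males. With limma 3 were lower and 0 higher in knockout males, among 14 with a peak base (3.19% of all fitted genes were lower and 0.284% higher). At an unadjusted limma p below 0.05 they were 6 and 0, where 11% of all fitted genes were lower and 2.18% higher. Ser, a Notch ligand gene, went from 77.3% and 76.1% to 26.0% and 15.9% (-55.7 ± 4.98 points, SE, limma adjusted p = 0.0269). ap, a LIM homeobox gene of the dorsal wing, had a limma estimate of -17.1 ± 1.79 points (SE, adjusted p = 0.0365) and salm, a zinc finger gene of the wing, -17.7 ± 1.77 points (SE, adjusted p = 0.0336). The Wnt gene wg, the Pax gene Poxn and the bHLH-PAS gene ss stayed at 97.7% or more in all 4 male libraries. N, the Notch receptor gene, sd, ac, sc and ase, all X-linked, were at 0% in the 4 male libraries. In females N was at 1.72% and 3.97% and ase at 36.0% and 25.2%, while sd, ac and sc had no peak. The median difference, knockout minus wild-type males, was -4.54 percentage points over the 14 fitted members and 0 points over all 3164 genes fitted. wg, vg, sens, Poxn and salm were at 100% in both wild-type male libraries and could not rise, whereas genes without coverage there could not fall. The shares called by limma and the medians thus do not compare like genes.

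The list of 20 temporal patterning factors of neural stem cells holds Cph itself and shares Kr with the list above. Wild-type male lists marked 12 of them in both replicates, knockout lists 7 and 8, and female lists 10 and 11. In the knockout 4 of 12 eligible genes lost the mark (hb, Kr, grh and hth), against 26.3% of all eligible genes. Of the 19 genes fitted, limma called 3 lower and 0 higher in knockout males, against 3.19% and 0.284% of all fitted genes. They were Cph, which is in the list by choice, the Sox gene D (-12.9 ± 0.750 points, SE, adjusted p = 0.0102) and hth, a homeobox gene (-55.3 ± 3.02 points, SE, adjusted p = 0.00852). At an unadjusted limma p below 0.05, 8 of 19 fitted were lower and 0 higher (11% and 2.18% of all fitted genes). chinmo, a BTB zinc finger gene, was at 22.1% and 24.3% in wild-type males against 1.83% and 0% in the knockout, but did not pass limma (-22.3 ± 2.98 points, SE, adjusted p = 0.0606). The other X-linked members were little marked: Imp, an RNA-binding protein gene, had no knockout peak, 2.30% and 1.35% in wild-type males and 13.0% and 14.8% in females, and br, a BTB zinc finger gene, at 0% in the 4 male libraries. The median difference of the 19 fitted members was -4.90 points for the knockout and -11.1 points for females, both against wild-type males, where all genes fitted had medians of 0 and 6.56 points. Here nub, pdm2, D, slp1 and slp2 were at 100% in both wild-type male libraries and could not rise, whereas genes without coverage there could not fall. Neither the shares called by limma nor the medians compare like genes. In females grh and hb lost the mark, as did 10.4% of all eligible genes. Of all genes marked in neither wild-type male library 1.09% gained it, and Cph, picked for that difference, was the member that did, from which nothing is read. The 7 genes of the Brahma chromatin remodelling complex (osa, brm, mor, Snr1, Bap60, Bap55 and Bap111), whose mammalian counterparts include BCL11 proteins as subunits, had no peak in any library.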

How the data were processed

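H3K27me3 chromatin immunoprecipitation was sequenced in 6 libraries, 2 for each of 3 groups. Tools listed per the submitters' processing notes are Bowtie2 2.4.5, Trimmomatic 0.39, deepTools 3.5.1, SAMtools 1.13 and Picard, with the dm6 build. Which peak caller was run, and with which control, is not given in the sources used here. For every peak the deposited lists give the authors' display score, fold enrichment (a ratio) and −log10 p and q values. Every deposited −log10 q was at least 1. The lists hold no counts, so depth is unknown. Folds were compared only within a list.

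Covered bases of the merged peaks were computed for every gene body of the Release 6 RefSeq gene table and for the flanks and 10 equal segments. limma 3.58.1 (R 4.3.3) was fitted to covered percent over the 3164 protein-coding genes with a peak base in at least 2 libraries, all groups together, with Benjamini-Hochberg adjustment. The code was tested on simulated data. Alternatives were stricter or merged peaks, equal list lengths, other flanks and limits, the replicate block, male libraries only and each library left out. For equal lengths each list was cut to at most 11420 kb on the main chromosome arms, keeping the peaks of highest −log10 p. ct, Cph and the lists were chosen with earlier results of these data known, and the parts of the bodies after peak positions were seen. Genes named are those in the windows, the 5 most similar to each gene, X-linked genes of at least 50 kb and members of 4 lists.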

Additional observations from a re-analysis of the deposited data

How the results depend on the processing

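The fall of ct in knockout males kept its direction and its limma call under the alternatives run for it, between -48.3 and -32.3 points, and between -47.6 and -46.6 points with 1 library left out. Cph kept its direction, between -43.2 and -40.6 points with 1 library left out, but its call was lost for peaks whose −log10 q reached 3 (-29.2 points, limma adjusted p = 0.105), with lists of equal total length (-29.1 points, adjusted p = 0.167) and with the replicate block (-41.9 points, adjusted p = 0.0862). ct kept its call with the replicate block (adjusted p = 0.0207). Deviations of same-numbered libraries from their group means correlated by -0.04 to 0.01 over genes. Replicate numbers thus carried no visible shared shift in coverage, but whether same-numbered libraries were handled together is not known. With the block limma called 44 genes lower in place of 101, and with male libraries only 121 lower of 1740 fitted. It called 176 lower of 625 fitted where −log10 q had to reach 3, and 77 lower and 50 higher of 1743 with equal lengths, against 101 and 9 of 3164. A fit without the filter on genes was unreliable in limma, since more than 50% of genes then had no variance, and is not given.

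The female minus male difference of ct went from 13.4 to -8.94 points at −log10 q of at least 3, 16.2 with gaps joined and 22.8 with equal lengths, and lay between 12.6 and 14.2 with 1 library left out. That of Cph went from 24.3 to 7.16 at the q limit and 30.0 with equal lengths, and lay between 20.8 and 27.7 with 1 library left out. Also reversed were the lower flank of ct at 20 kb (-16.3, from 10.1) and at the q limit (-5.37), segments 1 to 5 of ct with equal lengths (4.85, from -9.02), segments 6 to 10 of ct at the q limit (-0.547, from 35.9) and segments 1 to 5 of Cph there (-1.70, from 41.2). Their cause was not tested. Of the other values for flanks and parts of the bodies, 32 stayed within the replicate spread and 27 moved beyond it without a change of sign, 3 of them to 0 at the q limit. Some of the 32 could not move. Every peak in the windows had a fold above the limit of 1.5, and the flanks of Cph had no peak in either male group under any setting.

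Over all genes, 162 lost the mark in knockout males (86 with equal lengths) and 10 gained it (36 and 4 at limits of 20% and 80%, 1 at the q limit, 18 with equal lengths). In females 64 lost it (118 at the q limit, 34 with equal lengths) and 142 gained it (434 and 45 at limits of 20% and 80%, 4 at the q limit, 79 with equal lengths).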

Other observations

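The marked region below ct reached past the 50 kb described above. Over 100 kb below the gene, peaks covered 33.6% in wild-type males and 52.2% in females, as means of 2 libraries. Over the nearest 20 kb the order was the other way, with 69.2% for wild-type males, 53.0% for females and 3.81% for the knockout. The 100 kb above Cph was covered over 12.0% in females and over 0% in both male groups.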
